A study of Mus musculus with 8 samples.

Results

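Domains of trimethylated lysine 27 on histone H3 (H3K27me3) were compared between Asxl1-/- and wild-type mouse bone marrow mesenchymal stem and progenitor cells (MSPCs). The comparison took every island that the submitters called in either H3K27me3 library on the 19 autosomes, which came to 18447 islands in Asxl1-/- and 17507 in wild type. These are 35954 of the 158177 islands in the 7 island lists of the series. An island is a run of neighbouring windows enriched in a chromatin immunoprecipitation library, and it counted as shared when at least 1 bp overlapped an island of the other genotype. Both groups were C57BL/6 MSPCs at passages 5 to 10, grown in MesenCult medium, fixed with formaldehyde, sonicated and precipitated with the same Millipore antibody to H3K27me3. The labels give the genotypes as Asxl1-/- and wild type, and they state neither the deleted exons nor whether the cells of a library came from 1 animal or several. Each genotype had 1 library. No test between genotypes was made for that reason, and every value describes these 2 libraries without a check against replicates. The series further holds lists for ASXL1 in wild type and for H3K4me2 and H3K4me3 in both genotypes, which are used below to describe the islands. The input library was not analysed here.

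H3K27me3 is placed by Polycomb repressive complex 2 and lies in broad domains over silent genes, many of them developmental regulators. In mammals it settles at CpG-rich, unmethylated promoters and spreads from there, and it can also lie thinly over gene bodies and intergenic stretches. ASXL1 is the cofactor of the deubiquitinase BAP1, which removes ubiquitin from histone H2A, and loss of ASXL1 has been linked to reduced H3K27me3 in haematopoietic cells. MSPCs are the stromal cells that give rise to bone, cartilage and fat and that form the niche of blood stem cells.

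The promoters inside the widest islands that were present in 1 genotype alone show which kinds of sequence these domains held. Of the autosomal protein-coding genes, 16456 matched a promoter window in RefSeq (GRCm38.p6, the coordinates of mm10), with 20084 windows in all, each running from 250 bases before to 50 bases after a transcription start. Capitals mark CpG dinucleotides. The first 3 promoters lay in Asxl1-/- islands without a wild-type island. They are those of Ugt1a1 (chr1:88211709-88212008, plus strand), the enzyme that conjugates bilirubin, Bdkrb2 (chr12:105562922-105563221, plus strand), a bradykinin receptor, and Fam83g (chr11:61684160-61684459, plus strand). The others lay in wild-type islands without an Asxl1-/- island. They are those of Robo2 (chr16:74411776-74412075, minus strand), a receptor for Slit guidance cues, Ces2e (chr8:104926010-104926309, plus strand), a carboxylesterase, and Egf (chr3:129755273-129755572, minus strand), the epidermal growth factor.
Ugt1a1: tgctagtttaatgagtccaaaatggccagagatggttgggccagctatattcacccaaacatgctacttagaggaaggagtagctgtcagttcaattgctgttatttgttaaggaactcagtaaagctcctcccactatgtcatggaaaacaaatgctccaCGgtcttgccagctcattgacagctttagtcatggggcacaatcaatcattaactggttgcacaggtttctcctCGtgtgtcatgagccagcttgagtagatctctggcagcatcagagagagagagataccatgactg
Bdkrb2: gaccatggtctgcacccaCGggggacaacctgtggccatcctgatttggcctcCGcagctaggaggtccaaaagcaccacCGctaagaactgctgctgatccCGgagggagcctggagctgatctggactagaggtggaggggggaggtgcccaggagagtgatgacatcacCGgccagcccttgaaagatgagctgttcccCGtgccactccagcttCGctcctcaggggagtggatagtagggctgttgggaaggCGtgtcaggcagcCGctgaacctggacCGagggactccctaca
Fam83g: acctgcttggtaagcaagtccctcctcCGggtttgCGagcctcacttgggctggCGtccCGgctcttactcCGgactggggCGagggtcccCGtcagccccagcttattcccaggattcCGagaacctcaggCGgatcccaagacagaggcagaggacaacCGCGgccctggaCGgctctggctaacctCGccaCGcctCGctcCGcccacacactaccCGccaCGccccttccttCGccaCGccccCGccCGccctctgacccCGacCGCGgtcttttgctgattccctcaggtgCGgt
Robo2: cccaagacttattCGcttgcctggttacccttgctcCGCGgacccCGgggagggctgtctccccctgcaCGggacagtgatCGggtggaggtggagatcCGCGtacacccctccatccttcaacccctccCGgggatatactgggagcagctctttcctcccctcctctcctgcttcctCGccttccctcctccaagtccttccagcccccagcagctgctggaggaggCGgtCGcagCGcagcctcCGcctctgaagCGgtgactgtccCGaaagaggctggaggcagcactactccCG
Ces2e: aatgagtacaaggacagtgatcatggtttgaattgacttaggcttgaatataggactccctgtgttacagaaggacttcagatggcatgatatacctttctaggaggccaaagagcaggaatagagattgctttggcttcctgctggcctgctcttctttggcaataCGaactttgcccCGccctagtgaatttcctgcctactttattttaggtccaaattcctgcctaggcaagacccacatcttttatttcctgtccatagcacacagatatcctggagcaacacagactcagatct
Egf: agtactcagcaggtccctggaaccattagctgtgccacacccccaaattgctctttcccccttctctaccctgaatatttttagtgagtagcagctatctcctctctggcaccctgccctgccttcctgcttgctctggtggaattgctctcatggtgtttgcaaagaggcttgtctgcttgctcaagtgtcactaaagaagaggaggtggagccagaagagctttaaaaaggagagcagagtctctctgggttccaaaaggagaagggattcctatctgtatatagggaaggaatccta
The Ugt1a1, Bdkrb2 and Fam83g windows held 2, 10 and 26 CpGs. The Robo2, Ces2e and Egf windows held 17, 2 and 0. CpG-rich and CpG-poor promoters thus occurred on both sides.

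The island lists give positions but no read counts or scores, which leaves depth unknown, and a missing island may be a weaker one. In a culture of many cells, fewer cells with the mark and less mark per cell cannot be told apart. At the promoters of 7 stromal marker genes H3K4me3 was present at 5 in Asxl1-/- and 6 in wild type, and at 4 housekeeping genes it was present at 4 in each. At 3 chondrocyte genes it was present at 1 in Asxl1-/- and 3 in wild type, and at 5 osteoblast and 4 adipocyte genes at 3 and 2 in each. Of markers of other cells, it was present at 0 of 4 haematopoietic genes in Asxl1-/- and 1 of 4 in wild type, at 2 of 4 neuronal genes in each, at 1 of 3 endothelial and 1 of 3 epithelial genes in each and at 0 of 3 skeletal muscle genes in each. At 15 proneural bHLH genes it was present at 5 in Asxl1-/- and 6 in wild type. The part of other cells in the islands was not tested. Asxl1 itself had 4 H3K27me3 islands within 1 kb of the gene in Asxl1-/-, the widest 23.2 kb, and none in wild type. Without the position of the deleted part this does not check the genotype.

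Both genotypes covered nearly the same autosomal length with H3K27me3, yet much of it lay at different places. Islands covered 217.2 Mb in Asxl1-/- and 213.2 Mb in wild type, with a median width of 8.4 kb in both and a widest island of 241.8 kb in Asxl1-/- and 271.8 kb in wild type. The length covered in both was 134.8 Mb, which is 62.0% of the Asxl1-/- length and 63.2% of the wild-type length. In Asxl1-/-, 6524 islands overlapped no wild-type island, which is 35.4% (95% exact Clopper-Pearson interval 34.7 to 36.1) and is called gained whole. In wild type, 6305 islands overlapped no Asxl1-/- island, which is 36% (35.3 to 36.7) and is called lost whole. These intervals, like all below, cover counting error only. Whole islands made up most of the length that differed: 66.2% of the 82.5 Mb found in Asxl1-/- alone and 60.2% of the 78.4 Mb found in wild type alone. Edges of shared islands held 28.2% in Asxl1-/- and 33.1% in wild type, and gaps inside shared islands held 5.61% in Asxl1-/- and 6.74% in wild type. By length, shrinkage and splitting of domains were therefore the smaller part of the difference.

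The balance of gain and loss differed between whole chromosomes. The covered length of Asxl1-/- over wild type was below 1 on 10 autosomes and above 1 on 9, and it ran from 0.222 on chromosome 3 to 2.09 on chromosome 10. Chromosome 14 had the highest share of islands gained whole, 58.5%, and the lowest share lost whole, 12.8%. On chromosome 3 the shares were 3.83% gained and 80.8% lost. The log2 ratios of H3K4me2 and H3K27me3 had the same sign on 17 of the 19 autosomes, the exceptions being chromosomes 1 and 19. Across the 19 chromosomes the log2 ratio of H3K27me3 length correlated with that of H3K4me2 at r = 0.97 (Spearman 0.97) and with that of H3K4me3 at r = 0.94 (0.93), as a description of values that come from the same cell populations. All 3 marks thus shifted by whole chromosome, with large shifts of each on chromosomes 3, 10, 13 and 14. H3K27me3 also shifted on chromosomes 12 (ratio 1.87) and 18 (1.98), more than on chromosome 4 (0.619). The number of copies of each chromosome in the 2 cultures was not measured, and its part in the islands called lost or gained there was not tested. Some values below are therefore also given for chromosomes 6 and 19, where the H3K27me3 ratios were 0.996 and 1.05, and for the 10 autosomes whose log2 ratio of H3K4me2 lay within 0.2 of the autosomal median. Both sets were chosen after the ratios had been seen.

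**Figure D1:**
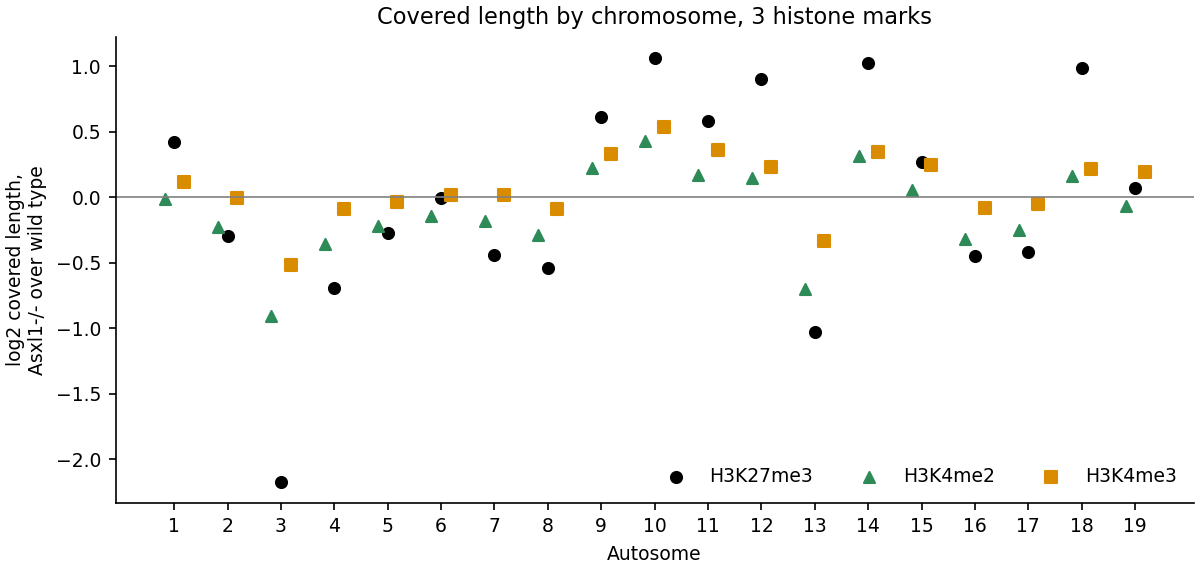
Log2 of the covered length in Asxl1-/- over wild type for each autosome (x axis) and 3 marks; points above the line at 0 have more covered length in Asxl1-/-. H3K27me3 spans from 0.222 times (chromosome 3) to 2.09 times (chromosome 10), and the H3K4me2 and H3K4me3 points follow its order over a smaller range.

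The balance of whole gains and losses depended on the chromosomes taken. On chromosomes 6 and 19 together, which were chosen for level H3K27me3, Asxl1-/- covered 23.3 Mb and wild type 23.0 Mb. Of the Asxl1-/- islands there, 500 of 1736 were gained whole, which is 28.8% (26.7 to 31.0). Of the wild-type islands, 465 of 1630 were lost whole, which is 28.5% (26.3 to 30.8). Near-equal shares follow from that choice, since the covered length is made of the same islands. On the 10 autosomes near the median of H3K4me2, 2527 of 9694 Asxl1-/- islands were gained whole, which is 26.1% (25.2 to 27), and 3537 of 10077 wild-type islands were lost whole, which is 35.1% (34.2 to 36.0). That set was not level: the median log2 ratio of H3K4me2 was itself below 0, at -0.143. H3K27me3 covered 121.4 Mb of the set in Asxl1-/- and 133.3 Mb in wild type. More losses than gains go with that lower cover, since it is made of the same islands.

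Narrow islands were the ones found in 1 genotype alone, and wide ones were shared in pieces. Of islands up to 4 kb, 48.5% were gained whole in Asxl1-/- and 60.5% were lost whole from wild type. Of islands from 16 to 32 kb, 18% were gained and 13.2% were lost. Above 64 kb, 1 of 177 Asxl1-/- islands was gained whole and 2 of 208 wild-type islands were lost whole. In the widest class 59.9% of the Asxl1-/- islands met 2 or more wild-type islands and 73.6% of the wild-type islands met 2 or more Asxl1-/- islands. A wider island has more room for an overlap, so part of this order follows from the rule itself.

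**Figure D2:**
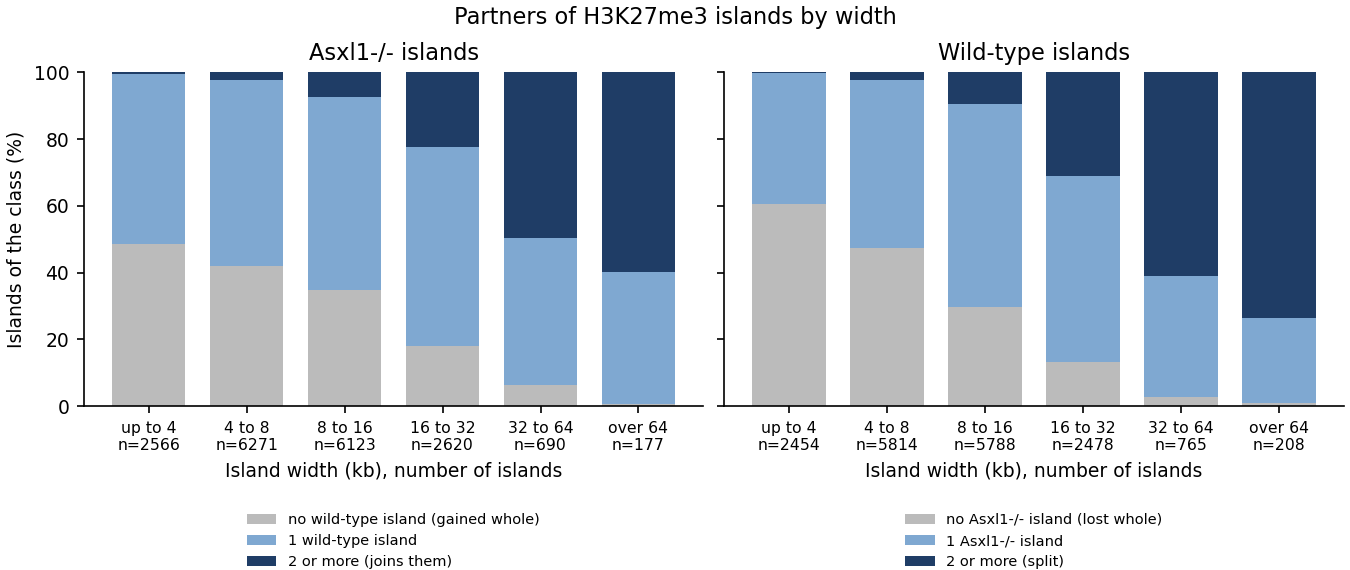
Share of islands (y axis, percent) that met 0, 1, or 2 or more islands of the other genotype, by width class (x axis, kb, with the number of islands), for Asxl1-/- islands on the left and wild-type islands on the right. The share without a partner is 48.5% in the narrowest class and 0.565% in the widest for Asxl1-/-, and 60.5% and 0.962% for wild type.

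Shared domains were on the whole slightly narrower in Asxl1-/-, with wide variation in both directions. Among 6499 islands paired 1 to 1, 3384 were narrower in Asxl1-/-, 2882 were wider and 233 had equal width. The median width of the pairs was 8.6 kb in Asxl1-/- and 9.2 kb in wild type. The median ratio was 0.975, with quartiles at 0.696 and 1.32. At least 2-fold narrowing was seen in 816 pairs, a share of 12.6%, and at least 2-fold widening in 672, a share of 10.3%. Both edges lay further in for 1692 Asxl1-/- islands and further out for 1310, while 2154 were shifted, with 1 edge in and the other out. An edge that moved did so by a median of 1.2 kb, which is 6 windows of the 200 bp grid.

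Position made little difference to the width of paired domains. Among pairs whose islands both reached within 1 kb of a gene end, 55.0% of 2274 were narrower in Asxl1-/-, with a median ratio of 0.963. Inside gene bodies the share was 49.2% of 1203 pairs and in intergenic stretches 50.4% of 2712, with median ratios of 1 and 0.984. The share at gene ends depended on which island set the position: it was 52.6% by the Asxl1-/- island and 57.5% by the wild-type island. A wide island reaches a gene end more easily, so a position taken from 1 list favours pairs that are wider in that list. The width ratio went with the chromosome instead. Its median was below 1 on 12 autosomes and above 1 on 7, and its correlation with the log2 ratio of covered length was 0.97 over 19 chromosomes. On chromosomes 6 and 19, 52.8% of 670 pairs were narrower in Asxl1-/-, with a median ratio of 0.974. On the 10 autosomes near the H3K4me2 median, where Asxl1-/- covered less length, 57.1% of 3814 pairs were narrower, with a median ratio of 0.938.

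From edge to centre, shared domains were covered less at the edges in both directions of comparison. Of shared Asxl1-/- islands of 16 to 32 kb, 65.2% were covered by wild type in the outermost 5% of their width and 86.1% at the centre. Of shared wild-type islands of that width, 60.9% were covered by Asxl1-/- at the edge and 84.7% at the centre. Overlap was required of these islands, and 2 intervals that overlap tend to differ first at their edges. The directions differed a little: in the 4 classes plotted, the outermost bin of wild-type islands was covered 3.53 to 5.1 percentage points less often than that of Asxl1-/- islands.

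**Figure D3:**
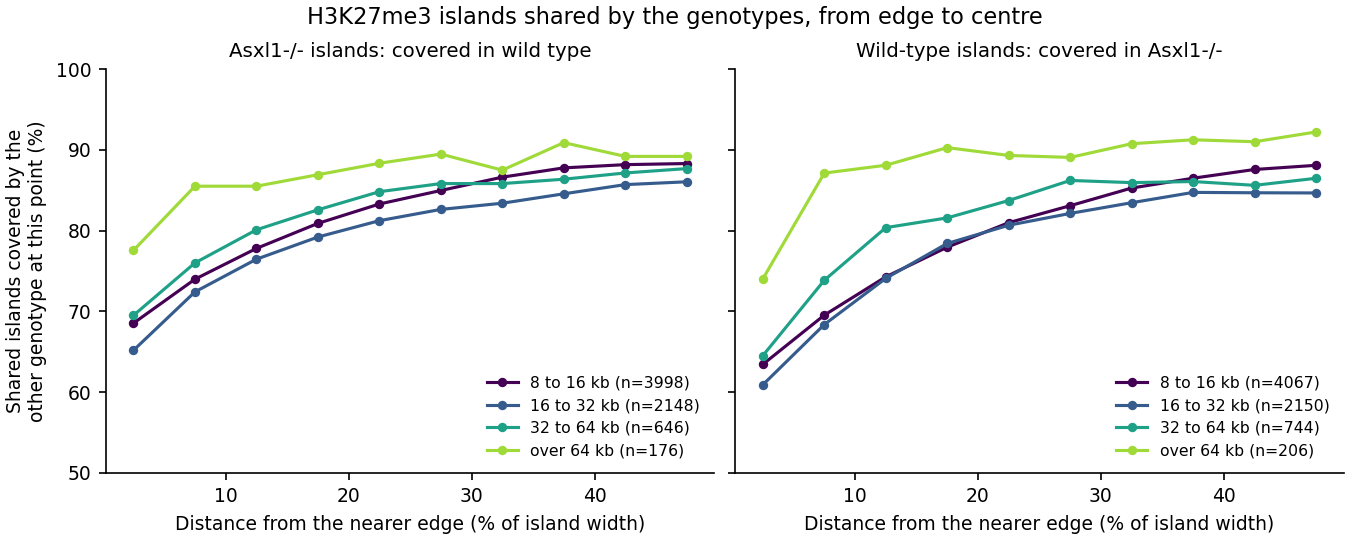
Share of shared islands covered by the other genotype (y axis, percent, from 50) against the distance from the nearer edge (x axis, percent of island width), in 4 width classes, for Asxl1-/- islands on the left and wild-type islands on the right. In the 16 to 32 kb class the outermost bin stands at 65.2% for Asxl1-/- islands and 60.9% for wild-type islands, against 86.1% and 84.7% at the centre.

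Splitting of a wild-type domain was more frequent than joining of wild-type domains. In wild type, 2084 islands met 2 or more Asxl1-/- islands (11.9%, 11.4 to 12.4), while 1645 Asxl1-/- islands met 2 or more wild-type islands (8.92%, 8.51 to 9.34). On chromosomes 6 and 19 the shares were 9.85% joining (8.49 to 11.3) and 13.4% split (11.8 to 15.1). Most split in 2: 1649 wild-type islands had 2 partners, 310 had 3 and 125 had at least 4. Among joining Asxl1-/- islands 1388 had 2 partners, 197 had 3 and 60 had at least 4. Split islands were wide, with a median of 21.6 kb, and joining islands had a median of 20.0 kb. Seen as linked groups, 1207 wild-type islands lay over several Asxl1-/- islands and nothing else, 803 Asxl1-/- islands lay over several wild-type islands, and 704 groups held several of each.

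The gaps that split domains were short and held few promoters. The 2710 gaps inside split wild-type islands had a median length of 1.0 kb, close to the smallest gap of 800 bp that separates any neighbouring islands in these lists. Asxl1-/- H3K4me3 covered 2.04% of the length of the gaps and 3.04% of the parts of the same islands that both genotypes kept. Annotated start sites were at 9.08 per Mb of gap and 18.1 per Mb of kept parts. Edges lost from shared wild-type islands were richer in H3K4me3, which covered 4.37% of them in Asxl1-/- and 3.45% in wild type. Edges gained by Asxl1-/- islands had less, 1.60% in Asxl1-/- and 1.56% in wild type.

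The islands that split most were among the widest and lay over 1 gene or a few neighbours. The Skap1 gene body, which codes for a T cell adaptor and lies beside the Hoxb cluster, carried a wild-type island of 161.0 kb (chr11:96527800-96688799) that met 10 Asxl1-/- islands covering 80.5% of it. At Kcnn3, a calcium-activated potassium channel, a wild-type island of 156.2 kb met 10 Asxl1-/- islands covering 77.6%. The widest wild-type island, 271.8 kb over Cux2, Myl2 and Ccdc63 on chromosome 5, met 7 Asxl1-/- islands, and these still covered 96.5% of it. At Lmo2 and Pax5, transcription factors of blood and B cell development, islands of 145.4 and 107.0 kb each met 7 Asxl1-/- islands that covered 67.3% and 75.9%. Slc35f3 had an island of 169.8 kb with 7 partners and 78.0% covered. These domains were thus broken up in the calls while most of their length remained marked in Asxl1-/-.

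Joining showed the same pattern in the other direction. An Asxl1-/- island of 84.2 kb between Anxa2 and Foxb1 on chromosome 9 met 9 wild-type islands that covered 67.7% of it. At Syt7, a calcium sensor of vesicle release, and Megf11, a cell-surface protein of the retina, islands of 137.8 and 90.4 kb each met 7 wild-type islands that covered 92.2% and 93.8%. At Rbfox3, the neuronal splicing factor NeuN, an island of 138.6 kb met 6 wild-type islands, and wild type covered 41.4% of it. Fstl4 and Rph3al islands of 99.4 and 76.0 kb also met 6 each, with 60.8% and 71.1% covered. Rbfox3 therefore stood for extension as well as joining, since 81.2 kb of its island lay outside wild-type islands.

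The largest shrinkage of shared domains was at Galnt14 and Pitx1. Galnt14, an enzyme of O-linked glycosylation, had 13.5 kb marked in Asxl1-/- and 217.5 kb in wild type over a gene of 218.9 kb. Its shared wild-type island of 128.2 kb lost 77.4 kb, 60.6 kb of it as 1 edge, and the neighbouring islands of 100.8 and 37.8 kb were lost whole. At Pitx1, a homeobox gene of hindlimb identity, and Catsper3, a 66.6 kb wild-type island was reduced to 6.0 kb in Asxl1-/-. H3K4me3 there covered 9.6 kb in Asxl1-/- and 1.2 kb in wild type. Gabbr2, a GABA-B receptor subunit, kept 17.2 of 73.6 kb, and Cacna1a, a neuronal calcium channel, kept 12.2 of 61.2 kb. At Col11a2, Rxrb and H2-Oa 19.4 of 70.2 kb was kept, and at the carboxylesterases Ces3a and Ces3b 10.0 of 58.6 kb. In these 6 islands 48.6 to 77.4 kb was absent from Asxl1-/-, mostly as unbroken edges rather than inner gaps.

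The largest extension was at Slc24a4, a potassium-dependent sodium and calcium exchanger. Its Asxl1-/- island measured 99.8 kb, and wild type covered 14.8 kb of it, so that a single edge of 85.0 kb was new. At Atp2b2, a plasma membrane calcium pump, 81.6 of 147.0 kb lay outside wild-type islands, with the longest piece an inner stretch of 51.0 kb. At Tcf20 and Nfam1, where 64.8 of 105.6 kb lay outside, H3K4me2 covered 9.4 kb in Asxl1-/- and 32.8 kb in wild type. Clmn had 62.4 of 94.4 kb outside wild-type islands.

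Domains at gene ends were kept far more often than domains in gene bodies or between genes. An island at a gene end reached within 1 kb of either end of a protein-coding gene, a gene-body island lay inside genes away from their ends, and the rest were intergenic. Of Asxl1-/- islands, 797 of 4958 at gene ends were gained whole (16.1%, 15.1 to 17.1), 1826 of 4418 in gene bodies (41.3%, 39.9 to 42.8) and 3901 of 9071 in intergenic stretches (43%, 42 to 44.0). Of wild-type islands, 1178 of 5253 at gene ends were lost whole (22.4%, 21.3 to 23.6), 1663 of 4079 in gene bodies (40.8%, 39.3 to 42.3) and 3464 of 8175 in intergenic stretches (42.4%, 41.3 to 43.5). The share at gene ends was below that in gene bodies on 19 of 19 autosomes for gains and on 18 for losses, and below the intergenic share on all 19 for both. Gene bodies were below intergenic stretches on 13 autosomes for gains and 7 for losses, so their order was not stable. On chromosomes 6 and 19 the gained shares were 15.1% at gene ends, 37.9% in gene bodies and 31.9% in intergenic stretches, and the lost shares were 17.9%, 39.6% and 29.8%.

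**Figure D4:**
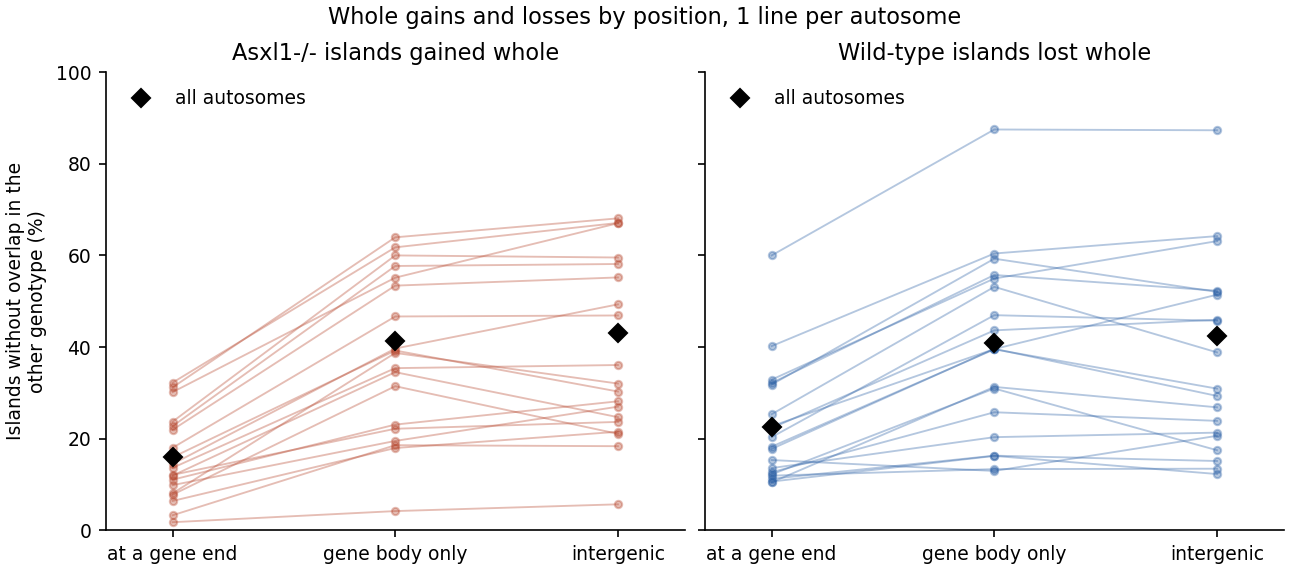
Share of islands without overlap in the other genotype (y axis, percent) by position, with 1 thin line per autosome and diamonds for all autosomes; Asxl1-/- islands gained whole are on the left and wild-type islands lost whole on the right. The diamonds stand at 16.1% and 22.4% at gene ends and between 40.8% and 43% elsewhere.

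The order of the positions was also seen at a single width. Islands at gene ends had a median width of 11.4 kb in both genotypes, those in gene bodies 8.0 kb in both, and intergenic ones 7.6 kb in Asxl1-/- and 7.4 kb in wild type. Among islands of 8 to 16 kb alone, 17.9% at gene ends, 40.0% in gene bodies and 41.0% in intergenic stretches were gained whole. In that width class 19.6%, 32.8% and 34.8% were lost whole. By length, wild type covered 77.2% of the Asxl1-/- domains at gene ends, 53.3% in gene bodies and 52.3% in intergenic stretches. Asxl1-/- covered 73.8%, 57.6% and 53.9% of the wild-type domains. The order of gene bodies and intergenic stretches turned on the 10 autosomes near the H3K4me2 median, where Asxl1-/- covered 54.0% of the wild-type domains in gene bodies and 55.7% in intergenic stretches.

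Gene-body domains that were found in 1 genotype lay in long genes. The genes around islands gained whole had a median length of 166.5 kb, against 114.3 kb around shared Asxl1-/- islands, and those around islands lost whole 148.2 kb, against 121.1 kb around shared wild-type islands. In genes over 200 kb, 50.2% (47.8 to 52.7) of Asxl1-/- islands were gained whole, against 36.2% (34.4 to 38.0) in shorter genes. For losses the shares were 46.9% (44.3 to 49.5) in genes over 200 kb and 37.4% (35.6 to 39.3) in shorter ones. The longer genes had the higher share on 13 of 19 autosomes for gains and on 14 for losses. Of single genes, 84 had at least 5 islands gained whole and 81 at least 5 lost whole.

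Examples of genes with many such islands were chosen here after their values were seen. Cacna2d3, a calcium channel subunit on chromosome 14, had 29 islands over 252.8 kb in Asxl1-/- and 3 over 16.2 kb in wild type. Plxna4, a semaphorin receptor on chromosome 6, had 19 islands over 299.4 kb in Asxl1-/- and 1 over 8.0 kb in wild type. Slit3, a guidance ligand that stromal cells also make, had 14 islands over 103.0 kb in Asxl1-/- and 0 in wild type, and Gria1, an AMPA receptor subunit, had 11 over 107.1 kb and 0 in wild type. Losses of like size were seen elsewhere. Nrg1, a ligand of ERBB receptors on chromosome 8, had 1 island over 6.6 kb in Asxl1-/- and 18 over 167.0 kb in wild type. Robo2 had 0 in Asxl1-/- and 7 over 200 kb in wild type, and Cadm2, a synaptic adhesion gene, had 0 in Asxl1-/- and 8 over 189.9 kb in wild type. Alk, a receptor tyrosine kinase, kept 15 islands over 115.5 kb in Asxl1-/- against 27 over 265.1 kb in wild type. Plxna4 lies on chromosome 6, where cover was level, whereas Slit3, Gria1 and Cacna2d3 lie on chromosomes that gained and Robo2 and Cadm2 on chromosome 16, whose ratio was 0.731.

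Intergenic domains were the most numerous class, and those far from genes were found in 1 genotype alone more often than nearer ones. They made up 49.2% of the Asxl1-/- islands and 46.7% of the wild-type islands. Their median distance to a gene was 41.4 kb when gained whole and 22.5 kb when shared, in Asxl1-/-. In wild type it was 31.6 kb when lost whole and 24.3 kb when shared. Of those over 100 kb from any protein-coding gene, 60.8% (58.4 to 63.2) were gained whole and 50.7% (47.9 to 53.4) were lost whole. Nearer to genes the shares were 39.0% (37.9 to 40.2) gained and 40.8% (39.6 to 42) lost. The farther class had the higher share on 18 of 19 autosomes for gains and on 16 for losses.

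The widest intergenic domains found in 1 genotype alone measured up to 43.4 kb in Asxl1-/- and 50.8 kb in wild type. Both a 43.4 kb and a 36.6 kb island gained whole lay between Ackr3, a scavenging receptor for CXCL12, and Cops8 on chromosome 1 (chr1:90307200-90350599 and chr1:90380600-90417199). The others gained were 42.4 kb between Dok2 and Gfra2 on chromosome 14 and 38.4 kb between Cox10 and Hs3st3a1 on chromosome 11. The widest lost was 50.8 kb between Tmprss15 and Ncam2 on chromosome 16 (chr16:79864200-79914999). It was covered over 50.6 kb by an ASXL1 island of wild type, and by 0 kb of H3K4me3 in Asxl1-/- and 8.6 kb in wild type. The remaining 3 lost were on chromosome 8: 49.6 kb between Thap1 and Zfp703, 46.4 kb between Tex29 and Sox1, and 41.6 kb between Kcnk1 and Slc35f3, none of which held an island of the other lists.

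The 10 widest whole domains gained over genes measured 44.6 to 73.0 kb. The widest was 73.0 kb at Sfi1, a centrosome gene (chr11:3127000-3199999), a locus known for anomalous read pile-up in mouse sequencing data, so its value is uncertain. Next was 63.2 kb in Plxna4 (chr6:32418000-32481199). An island of 58.8 kb on chromosome 1 covered Ugt1a1 with the shared 3' part of the Ugt1a cluster, Mroh2a and Hjurp, the chaperone of centromeric histone CENP-A. On chromosome 12, 57.6 kb lay at Esrrb, a nuclear receptor of pluripotent cells, 57.6 kb over both bradykinin receptor genes Bdkrb1 and Bdkrb2, and 50 kb in Dpf3, a subunit of a chromatin remodelling complex. Fam83g, Grap and Slc5a10 shared 57.2 kb on chromosome 11, and Cacna1i, a T-type calcium channel, had 52.0 kb. Tspan15 had 46.2 kb and Frmpd2 44.6 kb. Once islands less than 3000 bp apart were joined, those at Esrrb, the bradykinin receptors, Cacna1i and Tspan15 met a wild-type island. At the bradykinin receptors the island overlay other marks, with H3K4me2 over 3.4 kb in Asxl1-/- and 12.4 kb in wild type, and ASXL1 over 19 kb in wild type.

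The 10 widest whole domains lost over genes measured 33.6 to 100.8 kb, and 7 of them lay in Galnt14, Robo2 and Cadm2. After the 100.8 kb island at Galnt14 (chr17:73490800-73591599) came 64.4 kb in Robo2 (chr16:74387000-74451399) and 63.0 kb in Cadm2 (chr16:67051600-67114599). Further islands in Robo2 measured 56.4 and 39.4 kb and another in Cadm2 41.6 kb. The nearest Asxl1-/- island lay 2354 kb from the widest Robo2 island and 4911 kb from the widest Cadm2 island. H3K4me3 inside the Robo2 island, at the printed promoter, covered 0 kb in Asxl1-/- and 5.8 kb in wild type, and ASXL1 covered 36.2 kb of the Cadm2 island. Add2, a cytoskeletal adducin on chromosome 6, lost 38.8 kb, Ces2e and Ces2f shared 37.8 kb, a second Galnt14 island had 37.8 kb, which like the first lies near the shared island and met it once islands less than 3000 bp apart were joined, and Egf lost 33.6 kb on chromosome 3. Carboxylesterases of the cluster on chromosome 8 thus appeared both among whole losses (Ces2e, Ces2f) and among the largest shrinkages (Ces3a, Ces3b), and as near copies of each other their reads can be shared.

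On the chromosomes with level cover, the widest whole gains over genes were in Plxna4 (63.2, 42.2 and 31.0 kb), Cpvl (42.6 kb) and Chn2 (34.2 kb) on chromosome 6 and in Ablim1 (28.6 kb) on chromosome 19. The widest losses there were in Add2 (38.8 and 32.6 kb), Cacna1c (26.2 kb), a cardiac and neuronal calcium channel, and Dgki (26.0 kb) on chromosome 6, and at Slc16a12 (24.4 kb), a creatine transporter, on chromosome 19. These were also chosen after values were seen.

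Islands lost whole lay at H3K4me3 and at CpG-rich start sites more often than islands gained whole, but met H3K4me3 less often than shared islands. Asxl1-/- H3K4me3 touched 4.20% of the islands gained and 11.5% of those lost, and wild-type H3K4me3 touched 4.75% and 12%. The lost islands had the higher share on 19 of 19 autosomes with either H3K4me3 list. Wild-type ASXL1 touched 5.27% of islands gained and 8.37% of islands lost, with the lost ones higher on 15 autosomes. Of shared wild-type islands, 19.1% met H3K4me3 of Asxl1-/-, 20.4% met H3K4me3 of wild type and 8.72% met ASXL1. Shared wild-type islands were also wider, with a median of 10.4 kb against 6.4 kb for those lost. Most islands of either kind met no island of the other 5 lists: 86.1% of those gained and 78.8% of those lost.

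Losses also stood above gains when start sites were counted one by one. Islands gained whole held 433 annotated start sites, with a median of 6 CpGs in the 300-base promoter window, and 26.6% of them had H3K4me3 in Asxl1-/- and 27.7% in wild type. Islands lost whole held 809, with a median of 14 CpGs, and 57.1% had H3K4me3 in Asxl1-/- and 57.6% in wild type. Windows with at least 10 CpGs made up 36.7% of the gained and 61.1% of the lost, beside 57.9% of all 20084 windows. ASXL1 lay at 18% of the gained and 35.8% of the lost start sites. The median CpG number was higher for losses on 16 of the 17 autosomes with start sites of both kinds, and the promoter windows used covered 18 autosomes. The 3055 start sites marked in both genotypes had a median of 13 CpGs, and 38.1% of them had H3K4me3 in Asxl1-/- and 39.4% in wild type. Of all 20084 start sites, with a median of 14 CpGs, 57.9% had H3K4me3 in Asxl1-/- and 58.3% in wild type, and 50.2% had ASXL1. H3K4me3 at start sites of islands lost whole was thus near the share of all start sites. At start sites of islands gained whole, and at those marked in both genotypes, it was below that share.

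More genes lost every H3K27me3 island than gained one. Of 20661 autosomal protein-coding genes, 5482 had an island within 1 kb in Asxl1-/- and 6140 in wild type, 4656 of them in both. In Asxl1-/-, 666 genes had only islands gained whole, 12.1% (11.3 to 13) of the marked genes. In wild type, 1153 genes had only islands lost whole, 18.8% (17.8 to 19.8). On chromosomes 6 and 19 the shares were 12.5% gained (9.70 to 15.7) and 16% lost (13.1 to 19.4). On the 10 autosomes near the H3K4me2 median, where Asxl1-/- covered less length, they were 9.07% gained (8.08 to 10.1) and 18.2% lost (16.9 to 19.4). A further 160 genes gained and 331 lost the mark at the gene while the island itself was shared outside it.

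Few genes of the developmental transcription factor families gained or lost every island, Hox genes apart. Pooled after the families' values had been seen, the Hox, other homeobox, forkhead, Sox, T-box and GATA genes numbered 173 marked in Asxl1-/-, of which 1 was gained whole (0.578%, 0.0146 to 3.18), and 185 marked in wild type, of which 8 were lost whole (4.32%, 1.89 to 8.34). All marked genes on the same chromosomes would give 10.9% and 17.8%, and all marked genes with islands of the same widths 8.01% and 8.64%. The counts were thus nearer to the shares for the same widths, and no test was made. Of the homeobox genes outside the Hox clusters, 0 of 99 were gained, which allows up to 3.03%. All marked genes on the same chromosomes would give 10.8%, and those with the same widths 7.75%. Of 103 marked in wild type 2 were lost (1.94%), beside 18.9% and 8.20%, among them Irx5 (11.6 kb). A gene that kept an island could still lose most of it, as at Pitx1. No Sox or T-box gene was gained among 12 of each in Asxl1-/-, beside 12.3% and 11.8% on the same chromosomes. None was lost among 13 and 12 in wild type, beside 16.7% and 14.7%. These counts of 0 allow up to 25% of 12 genes and 23.1% of 13, so they give no ordering. Of 25 forkhead genes marked in wild type 2 were lost, beside 21.3% on the same chromosomes and 11.8% for the same widths. They were Foxo1 (20.6 kb, on chromosome 3), a factor of metabolism and bone formation, and Foxl1 (4.2 kb). Of 24 marked in Asxl1-/- 1 was gained, Foxr1 (4.8 kb), beside 11.0% and 11.8%.

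Hox genes made up 4 of these 8 losses. Of 22 Hox genes marked in Asxl1-/- 0 were gained, which allows up to 13.6%, beside 10.2% on the same chromosomes and 4.34% for the same widths. Of 28 marked in wild type 4 were lost whole (14.3%, 4.03 to 32.7), beside 12.8% on the same chromosomes and 4.49% for the same widths. All 4 lie in the Hoxa cluster on chromosome 6. Hoxa3, Hoxa6 and Hoxa7 were touched by islands of 12.4 kb and Hoxa9 by 1 of 3.2 kb, so that neighbouring genes share islands and count as fewer domains.

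Few potassium channel genes gained or lost every island. Of 73 marked in Asxl1-/- 1 was gained, Kcnh7 (2.6 kb), against 10.7% for all marked genes on the same chromosomes. Of 75 marked in wild type 3 were lost (4%, 0.833 to 11.2), against 20.1%: Kcna3 (15.6 kb) and Kcnab1 (7.4 kb) on chromosome 3, and Kcne4 (7.8 kb). With islands of the same widths, 9.35% and 14.3% would be gained and lost. Collagen genes had 2 of 22 gained (9.09%, beside 13.8% on the same chromosomes), Col17a1 (19.6 kb) and Col6a1 (15.4 kb), and 1 of 24 lost (4.17%, beside 17.3%), Col24a1 (3.2 kb). Protocadherins had 0 of 20 gained, beside 19.5% on the same chromosomes, and 1 of 21 lost (4.76%, beside 12.1%), Pcdh7 (8.8 kb), and they lie in clusters and share sequence.

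Of the families plotted, metalloprotease and zinc finger genes had the highest shares of losses. Of the ADAM, ADAMTS and MMP genes 1 of 23 marked in Asxl1-/- was gained (4.35%), Adamtsl3 (9.4 kb), beside 11.3% on the same chromosomes and 12.8% for the same widths. Of 34 marked in wild type 12 were lost (35.3%, 19.7 to 53.5), beside 18.5% on the same chromosomes and 23.9% for the same widths. The widest losses were at Mmp20 (15.4 kb), an enamel protease, Adam30 (13.6 kb), Adam3 (12 kb), a sperm gene, and Adamtsl1 (11.0 kb). Of the Zfp genes 3 of 35 were gained (8.57%), beside 10.9% on the same chromosomes and 13.3% for the same widths. Losses numbered 20 of 61 (32.8%, 21.3 to 46.0), beside 18.6% on the same chromosomes and 24.8% for the same widths. Zfp811 (22.6 kb), Zfp11 (18.4 kb), Zfp869 (14.6 kb) and Zfp54 (13.8 kb) led these losses. Zinc finger genes of this kind lie in clusters of similar copies, to which reads can be assigned with doubt. The intervals of both families reach down to near the shares of their chromosomes.

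Immune signalling genes, sensory receptor genes and keratin genes were found on both sides. Of the chemokine and interleukin genes and their receptors 11 of 46 were gained (23.9%, 12.6 to 38.8), beside 13.2% on the same chromosomes, and 8 of 41 were lost (19.5%, 8.82 to 34.9), beside 17.4%. Il17a (18.8 kb), Il13 (18.2 kb), Il33 (16 kb), an alarmin of stromal cells, and Ccl1 (13.2 kb) were gained. Il1b (19.4 kb), Il21 (9.4 kb), Cxcl9 (6.6 kb) and Cxcl12 (6.4 kb), the ligand that retains blood stem cells in the marrow, were lost. Olfactory and vomeronasal receptor genes had 14 of 64 gained (21.9%, beside 13.2% on the same chromosomes and 13.7% for the same widths) and 20 of 73 lost (27.4%, beside 15.8% and 19.8%), and 1369 of 1458 were unmarked in both genotypes. Keratin genes had 5 of 41 gained (12.2%, beside 11.6%), with Krt32, Krt35 and Krt36 in 1 island of 20.6 kb, and 2 of 40 lost (5%, beside 7.41%), Krt8 (8.6 kb) and Krt34 (7.0 kb).

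Glutamate and GABA receptor, axon guidance and solute carrier genes stood near the background. Of the glutamate and GABA receptor genes 3 of 27 were gained (11.1%, beside 12.8% on the same chromosomes and 15.1% for the same widths), among them Gria1 and Gabrp on chromosome 11. Of 32 marked in wild type 8 were lost (25%, 11.5 to 43.4), beside 19.7% on the same chromosomes and 26.7% for the same widths. Grin2b, an NMDA receptor subunit on chromosome 6, lost 7 islands, the widest 17.6 kb. Of the axon guidance genes 4 of 33 were gained (12.1%, beside 12% and 11.3%), among them Slit3 and Plxnb1 (12.6 kb), and 11 of 40 were lost (27.5%, 14.6 to 43.9), beside 23.4% and 23.0%. After Robo2 the widest were Sema4a (10.6 kb), Efna4 (8.2 kb) and Unc5c (6.8 kb), all on chromosome 3. Solute carriers had 19 of 167 gained (11.4%, beside 12.1% on the same chromosomes) and 29 of 178 lost (16.3%, beside 19.6%). Amine and muscarinic receptor genes had lower shares, with 1 of 35 gained (2.86%, 0.0723 to 14.9), beside 11.6% on the same chromosomes. They had 4 of 38 lost (10.5%, 2.94 to 24.8), beside 18.7%. Sodium and calcium channel genes had 1 of 28 gained (3.57%, 0.0904 to 18.3), beside 13.3%, and 4 of 31 lost (12.9%), beside 12.1%.

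**Figure D5:**
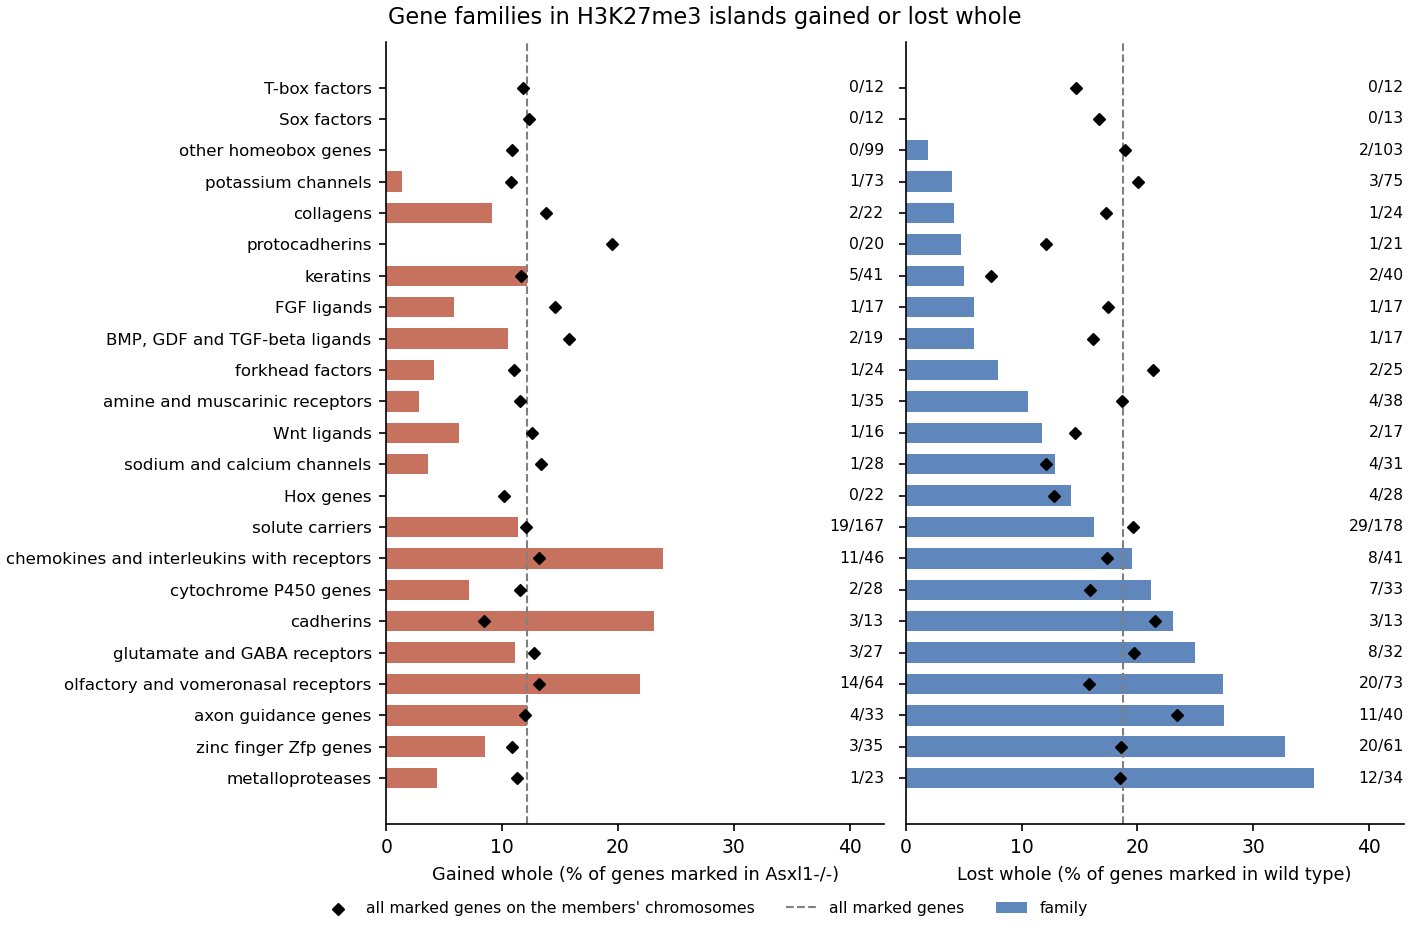
Share of marked genes (x axis, percent) whose every island was gained whole (left, of genes marked in Asxl1-/-) or lost whole (right, of genes marked in wild type), for 23 gene families with at least 10 marked genes; numbers at the right edge are genes called over genes marked, diamonds give all marked genes on the members' chromosomes and the dashed line all marked genes (12.1% and 18.8%). Homeobox genes outside the Hox clusters and potassium channel genes lie far left of their diamonds, and metalloprotease and Zfp genes lie right of theirs for losses.

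Genes that define MSPCs and their descendants formed short lists, with few marked genes in each. An island of either genotype lay at 5 of 10 stromal, 3 of 8 osteoblast, 3 of 6 adipocyte and 5 of 6 chondrocyte genes. Of all protein-coding genes 33.7% were marked in either genotype. Of 10 stromal genes 2 were marked in Asxl1-/-, with 1 gained (Thy1, 3.8 kb), and 4 in wild type, with 3 lost, beside 26.4% lost on the same chromosomes and 30.7% for the same widths: Nes (20.6 kb, on chromosome 3), the intermediate filament nestin, Mcam (7.4 kb) and Cxcl12. Of 3 adipocyte genes marked in wild type Cebpa (11.2 kb), a master regulator of fat cells, and Lpl (5.6 kb) were lost, and of 3 osteoblast genes Ibsp (20.4 kb), a bone matrix protein, was lost, beside 22.9% and 18.7% on the same chromosomes. Of 5 chondrocyte genes marked in wild type Matn3 (4.2 kb) was lost, beside 20.5%. Of haematopoietic genes Ptprc (17.6 kb) and Itgam (6.4 kb), both leukocyte surface proteins, were lost out of 6 marked in wild type, beside 17.4% on the same chromosomes. Of endothelial and neuronal genes marked in wild type, 2 of 4 and 2 of 5 were lost, beside 27.2% and 25.2%. Of skeletal muscle and epithelial ones, 1 of 3 and 1 of 5 were lost, beside 13.8% and 17.0%. Of 3 endothelial genes marked in Asxl1-/- 1 was gained, beside 10.2%. Of 5 housekeeping genes none was marked in either genotype. Among Polycomb and Trithorax genes Asxl1 and Cbx2 (9.4 kb), a subunit of Polycomb repressive complex 1, were gained out of 7 marked in Asxl1-/-. All marked genes on the same chromosomes would give 11.9%, and those with the same widths 9.35%. Bmi1 (4.2 kb), another subunit of that complex, and Kdm6b (3.6 kb), a demethylase of H3K27me3, were lost out of 7 marked in wild type. The shares beside these losses were 10.9% on the same chromosomes and 27.8% for the same widths. Counts this small give no ordering against the background.

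Whole losses and gains came in long runs of neighbours. Counting along a chromosome, 78 runs of at least 10 consecutive Asxl1-/- islands without any wild-type island between them lay on 14 chromosomes. For wild-type islands without any Asxl1-/- island between them there were 80 runs of at least 10, on 10 chromosomes. The longest run of losses held 111 wild-type islands over 13224 kb of chromosome 3 (chr3:131142200-144366199), from Lef1 to Lmo4 and through Bank1, Nfkb1 and the Adh genes. H3K4me2 in that stretch had 87 islands in Asxl1-/- and 183 in wild type, and H3K4me3 had 44 in Asxl1-/- and 73 in wild type. The longest run of gains held 31 Asxl1-/- islands over 742.8 kb of chromosome 10 around Nuak1 and Ckap4, where H3K4me2 had 16 islands in Asxl1-/- and 12 in wild type. On chromosome 6, 21 Asxl1-/- islands over 747.4 kb ran through Plxna4 without a wild-type island, with 1 H3K4me2 island in Asxl1-/- and 0 in wild type and no H3K4me3 island in either. Of the 4 longest runs of losses on chromosome 3, that of 31 islands (chr3:97110600-97814799) had 12 H3K4me2 islands in Asxl1-/- and 13 in wild type, and 8 H3K4me3 islands in each. The part of chromosome-wide cover in these runs was not tested.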

How the data were processed

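Chromatin immunoprecipitation and sequencing gave 1 library per target and genotype. Per the submitters' processing notes, reads were aligned with BWA and islands were called with SICER 1.1 on mm10. Sources used here do not give the BWA version, the calling parameters, the control or the error limit. The deposited values are island positions alone, on a 200 bp grid and with gaps of at least 800 bp, and no counts. Positions are printed as the files give them.

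Islands on the 19 autosomes were joined by position (Python 3.11.15, numpy 2.4.6, pandas 2.3.3, scipy 1.17.1). The number of overlaps was checked against bedtools on the deposited lists. Recovery of planted changes was checked on an altered copy of the wild-type list. Genes came from the RefSeq table of GRCm38.p6, widened by 1000 bp on each side. That table has no exons, so introns and untranslated regions were not assigned. Shares for the same chromosomes or widths weight all marked genes by those of the family.

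Genes named are those of the widest whole islands, the largest differences, the most divided islands, the widest intergenic islands and up to 4 per family and direction, apart from clone names and a few genes not reported here. Members and gene lists were chosen with earlier results of these data known. Of 107 listed genes 103 were on autosomes. Alternatives changed the overlap, the least width, the number of islands, the joining distance, the chromosomes and the gene set.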

Additional observations from a re-analysis of the deposited data

Results flagged for a closer look

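The X and Y chromosomes lie outside the comparison of autosomes, and islands there were noted because Asxl1-/- had more of them. The X chromosome carried 1801 H3K27me3 islands over 15.6 Mb in Asxl1-/- and 205 over 1.34 Mb in wild type. H3K4me2 on the X chromosome had 786 islands in Asxl1-/- and 755 in wild type, and H3K4me3 had 484 in Asxl1-/- and 489 in wild type. The Y chromosome carried 1 H3K27me3 island in Asxl1-/-, of 7.6 kb, and 0 in wild type. H3K4me2 on the Y chromosome had 3 islands in Asxl1-/- and 2 in wild type, and H3K4me3 had 0 in each. The sex of the cultures was not tested, and with 1 library per genotype a difference in sex cannot be told apart from genotype.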

How the results depend on the processing

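No paired analysis was possible because each genotype had 1 library and the labels give no replicate numbers. Of 84 counts recomputed under alternatives, 73 stayed within 1.5 times of the reported count and 11 did not. With islands less than 3000 bp apart joined first, Asxl1-/- islands that join wild-type ones fell to 794 and wild-type islands that split to 897, and gene-body islands numbered 1136 gained and 1100 lost. Asking for an overlap of 50% of the narrower island left 971 joining islands, beside 1392 split ones. Without chromosomes 3, 4, 10, 13 and 14, 4053 islands were lost whole, 2089 of them intergenic. That set still held chromosomes 12 and 18, whose H3K27me3 ratios were 1.87 and 1.98. On the 10 autosomes near the median of H3K4me2, a subset added after the data had been seen, 2527 islands were gained whole and 3537 lost whole, with 282 genes gained and 663 lost. Fewer chromosomes give fewer islands by construction, but the balance of gains and losses also differed there, where Asxl1-/- covered less length than wild type. In all 5 alternatives run for both, split islands outnumbered joining ones, and genes lost outnumbered genes gained wherever both were counted. Which whole islands were more numerous was not stable: in lists of equal number 6039 were gained and 6561 lost, against 6524 and 6305 as reported. The 20 widest whole islands named at genes met no island of the other genotype in 91 of 97 recomputations. The 6 others, at Esrrb, Bdkrb1, Cacna1i, Tspan15 and in 2 islands of Galnt14, came from joining islands less than 3000 bp apart. The lists hold no counts, so depth and signal behind an island cannot be weighed.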
